A study of Mus musculus with 5 samples.

Results

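The subject is the set of 4 reprogramming factors Pou5f1, Sox2, Klf4 and Myc, taken as the rows of the deposited gene tables whose Ensembl IDs carry those symbols, 4 of 29267 genes. Fibroblasts from ICR mouse embryos were sampled while being reprogrammed, and RNA sequencing gave 5 libraries, with 1 library per group. Collected at day 4 were cells expressing Flag, which served as the control, and cells expressing CypD (cyclophilin D, the regulator of the mitochondrial permeability transition encoded by Ppif). At day 8 there were cells labelled as given no treatment, cells treated with mastoparan, a peptide of wasp venom, and cells treated with paraquat, a redox-cycling herbicide. All 3 day-8 libraries are also labelled as expressing CypD, but their scaled Ppif level lay between 29.2 and 34.2 CPM (counts per 1000000), near the 44.2 CPM of the Flag library and far from the 761 CPM of the day-4 CypD library. The title of the series asks which genes the mitoflash regulates, a mitoflash being a transient superoxide and pH event in a single mitochondrion. Neither doses nor the set of factors introduced, nor the way they were introduced, is stated in the labels.

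Pou5f1 encodes Oct4, a POU-homeodomain transcription factor that binds an octamer motif, and Sox2 encodes an HMG-box factor that binds beside it on many enhancers of pluripotent cells. Klf4 is a zinc-finger factor that binds CACCC boxes and GC boxes, and Myc is a basic helix-loop-helix factor that binds E-boxes as a dimer with Max and raises growth and ribosome genes. Introduced together, these factors can turn fibroblasts into pluripotent cells, and the proportions among them are known to affect the outcome. Fibroblasts express Klf4 and Myc from their own genes, whereas Pou5f1 and Sox2 are normally silent in them. Reads from the cells' own genes and from introduced copies fall on the same gene row in the files, so every value below is the sum of both.

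Total expected counts ranged from 2426015 in the paraquat library to 3426702 in the CypD library. With no second library of any group, no difference has a replicate check and none has a p-value, and all intervals are exact 95% intervals that cover counting error only. Of 12 fibroblast markers, 12 had a count above 0 in every library. Their summed level lay between 5714 and 6464 TPM (transcripts per 1000000, a level per transcript length). Most of it was Vim, at 3033 to 4013 TPM, and S100a4, at 1282 to 2002 TPM, while Pdgfra lay between 0.45 and 0.9 TPM. The 8 other pluripotency markers chosen were low, with a summed level between 3.03 and 8.24 TPM and with Lin28a and Dppa3 at 0 in all 5 libraries. Outside these 8, Fgf4 stood at 11.9 TPM and Fbxo15 at 11.4 TPM in the day-8 control. The 6 epithelial markers summed to between 117 and 133 TPM at day 4 and between 304 and 332 TPM at day 8.

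The 4 genes lie on different chromosomes of the GRCm38 (mm10) assembly. Pou5f1 (ENSMUSG00000024406) spans chr17:35506018-35510772 on the plus strand, Sox2 (ENSMUSG00000074637) spans chr3:34650405-34652461 on the plus strand, Klf4 (ENSMUSG00000003032) spans chr4:55527143-55532466 on the minus strand, and Myc (ENSMUSG00000022346) spans chr15:61985391-61990374 on the plus strand. Because all 4 genes were lower with paraquat, the 250 bases before the RefSeq start of each gene with an entry (GRCm38.p6) are printed, 5′ to 3′ on the gene's own strand, for chr17:35505782-35506031 (plus), chr3:34649745-34649994 (plus) and chr4:55532476-55532725 (minus). Capitals mark matches, on either strand, to motifs of the factors themselves. No entry was matched for Myc.
Pou5f1: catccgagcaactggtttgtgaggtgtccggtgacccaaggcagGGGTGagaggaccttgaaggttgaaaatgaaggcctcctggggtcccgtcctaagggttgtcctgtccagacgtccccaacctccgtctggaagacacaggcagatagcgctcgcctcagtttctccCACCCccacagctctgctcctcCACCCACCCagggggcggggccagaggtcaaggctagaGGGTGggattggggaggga
Sox2: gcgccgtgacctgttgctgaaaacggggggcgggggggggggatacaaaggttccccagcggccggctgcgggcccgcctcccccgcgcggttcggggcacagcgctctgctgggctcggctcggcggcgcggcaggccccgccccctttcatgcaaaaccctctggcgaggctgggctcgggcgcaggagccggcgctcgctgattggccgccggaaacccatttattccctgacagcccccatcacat
Klf4: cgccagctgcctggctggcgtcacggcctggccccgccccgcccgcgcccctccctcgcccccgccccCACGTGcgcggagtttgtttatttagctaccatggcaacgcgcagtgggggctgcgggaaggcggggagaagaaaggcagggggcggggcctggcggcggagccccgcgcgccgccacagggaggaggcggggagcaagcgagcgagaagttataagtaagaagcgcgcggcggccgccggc

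The motifs searched were the octamer ATGCAAAT, the SOX motif CATTGT, the CACCC box CACCC and the E-box CACGTG. GC boxes, which Klf4 also binds, were not searched. The Pou5f1 window held 5 CACCC matches, starting 206, 79, 57, 53 and 19 bases before its RefSeq start, those at 57 and 53 adjoining with a shared base. The RefSeq starts differ from the starts of the gene spans above. The Pou5f1 window, from the first of 2 entries, ends at 35506031, past the span start at 35506018. The Sox2 window ends at 34649994, upstream of the span start at 34650405. The Klf4 window held a single E-box 182 bases before its RefSeq start, and the Sox2 window held none of the 4 motifs. Among 32851 RefSeq promoter windows of the same length, 52.0% held CACCC, 10.7% held CATTGT, 6.02% held CACGTG and 1.60% held ATGCAAAT. The windows concern the cells' own genes only, and a match is a description of letters.

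Pou5f1 had the highest TPM and the most counts of the 4 factors in every library. Its scaled level was 2390 CPM with Flag (6056 counts), 2082 with CypD (7189 counts), 3072 in the untreated day-8 cells (9473 counts), 2946 with mastoparan (8397 counts) and 1868 with paraquat (4312 counts). The paraquat library was the lowest of the 5 and the day-8 control the highest, and the control and mastoparan libraries lay close together. In deposited TPM, Pou5f1 ranked between 32 and 62 among all 29267 genes, its lowest rank being in the paraquat library.

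Sox2 stood at 1058 CPM with Flag (2680 counts), 834 with CypD (2879 counts), 944 in the untreated day-8 cells (2912 counts), 908 with mastoparan (2587 counts) and 526 with paraquat (1213 counts). It was highest with Flag, where the other 3 factors were not. Its TPM rank lay between 230 and 296 in the CypD, control and mastoparan libraries and was 577 with paraquat.

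Klf4 stood at 1646 CPM with Flag (4172 counts), 1276 with CypD (4408 counts), 1901 in the untreated day-8 cells (5861 counts), 1641 with mastoparan (4676 counts) and 860 with paraquat (1985 counts). The Flag and mastoparan libraries were nearly level, and the paraquat library was the lowest. Its TPM rank was 93 with Flag, 94 in the day-8 control and 389 with paraquat.

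Myc stood at 1359 CPM with Flag (3445 counts), 1117 with CypD (3857 counts), 1443 in the untreated day-8 cells (4448 counts), 1373 with mastoparan (3912 counts) and 827 with paraquat (1908 counts). Flag, control and mastoparan formed a near-level group for this gene, with the CypD library below them and the paraquat library lowest.

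**Figure D1:**
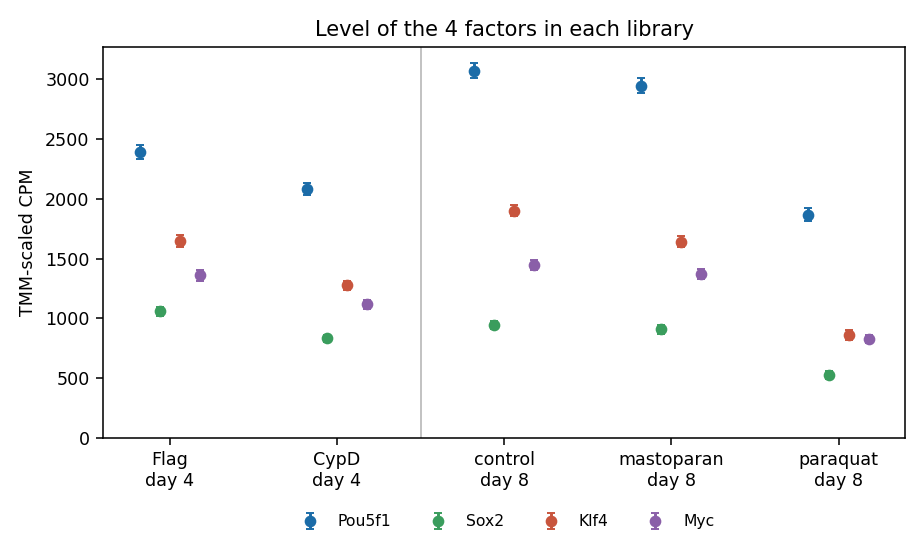
TMM-scaled CPM (vertical axis, from 0) of the 4 factors in each of the 5 libraries, with bars for the exact 95% Poisson interval of the counts and a line between the day-4 and day-8 libraries. All 4 factors are lowest in the paraquat library, and the bars are short beside the distance from control to paraquat.

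Summed over the 4 factors, the deposited TPM was 6245 with Flag, 4886 with CypD, 7014 in the untreated day-8 cells, 6122 with mastoparan and 3150 with paraquat. These sums were 0.624%, 0.489%, 0.701%, 0.612% and 0.315% of all TPM in the same order. The smallest sum was the paraquat library's and the largest the day-8 control's.

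The proportions among the factors differ with the length that counts are divided by, so the order of the factors below Pou5f1 is not fixed by these data. By deposited TPM the order in every library was Pou5f1, Myc, Klf4 and then Sox2. By undivided counts Klf4 stood above Myc in every library. Divided by coding length (1056 bases for Pou5f1, 957 for Sox2, 1449 for Klf4 and 1317 for Myc, without the stop codon, in GENCODE M21), the 3 lower factors lay close together. On that scale the ratio of Klf4 to Sox2 was 1.03 (0.979 to 1.08) in the Flag library and 1.01 (0.965 to 1.06) in the CypD library. It was 1.33 (1.27 to 1.39) in the untreated day-8 cells, 1.19 (1.14 to 1.25) with mastoparan and 1.08 (1.01 to 1.16) with paraquat. Klf4 and Myc were not separated by their intervals with CypD (1.04, 0.995 to 1.08) or with paraquat (0.946, 0.888 to 1.01).

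Pou5f1 took a larger share of the sum at day 8 than at day 4. By TPM its share was 45.7% with Flag, 48.3% with CypD, 52.6% in the untreated day-8 cells, 53.6% with mastoparan and 57.3% with paraquat, and by coding length it was also smallest with Flag, at 40.9%, and largest with paraquat. Klf4 took 19.5%, 16.9%, 17.4%, 14.8% and 11.8% of the TPM in that order, the smallest share being in the paraquat library. Myc stayed between 22.0% and 24.6%, and Sox2 took 10.5% and 10.2% at day 4 and between 8.04% and 8.54% at day 8.

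**Figure D2:**
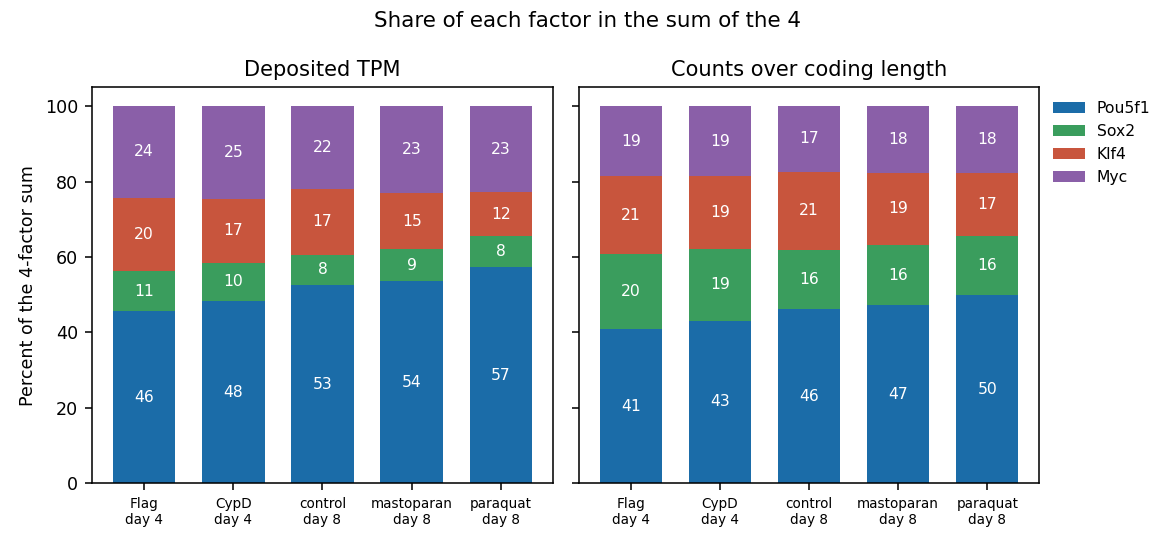
Share of each factor in the sum of the 4 (percent, stacked to 100) in each library, from deposited TPM on the left and from counts over coding length on the right. The Pou5f1 segment is smallest in the Flag library and largest in the paraquat library on both scales, and the Klf4 segment is smallest in the paraquat library.

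The ratio of Sox2 to Pou5f1, per effective length, was 0.230 (0.220 to 0.241) with Flag, 0.212 (0.203 to 0.221) with CypD, 0.153 (0.147 to 0.160) in the untreated day-8 cells, 0.159 with mastoparan and 0.142 with paraquat. The day-4 intervals lay apart from that of the day-8 control. The ratio of Myc to Pou5f1 was 0.533, 0.510, 0.418, 0.431 and 0.397 in the same order. The ratio of Klf4 to Pou5f1 was 0.428 (0.411 to 0.445), 0.349 (0.336 to 0.362), 0.331 (0.320 to 0.342), 0.276 (0.266 to 0.286) and 0.205 (0.194 to 0.216). The order of these ranges depends on the length used. By coding length the Klf4 to Pou5f1 ratio ran from 0.502 with Flag to 0.335 with paraquat, and the Sox2 to Pou5f1 ratio from 0.488 to 0.310.

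The day-4 comparison asks how the factors differed with expression of CypD. All 4 factors were lower in the CypD library than with Flag, by 1.15 times for Pou5f1 (1.11 to 1.19), 1.27 times for Sox2 (1.20 to 1.34), 1.29 times for Klf4 (1.24 to 1.35) and 1.22 times for Myc (1.16 to 1.27). Every interval excluded 1 for counting error. None of the 4 differences reached 1.5-fold, which 5.75% of 13244 tested genes reached downwards and 5.22% upwards. In bulk RNA, fewer cells that carry a factor and less factor RNA per cell cannot be told apart. Genes were tested where their mean was at least 1 CPM over the libraries of the day.

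The day-4 differences were small but sat at the edge of similarly abundant genes. Among the 249 genes whose mean reached 500 CPM, 0 were past 1.5-fold in either direction. Counted from the lowest log2 ratio, Klf4 was gene 1, Sox2 gene 2, Myc gene 3 and Pou5f1 gene 5 of the 249. The median log2 ratio was -0.31 for the 4 factors, -0.02 for all tested genes and 0.05 for the abundant genes. Over the abundance limits tried, the rank of Klf4 from the lowest was 1 among 868 genes of at least 200 CPM and 1 among 86 genes of at least 1000 CPM, while that of Pou5f1 was 23 and 3.

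For CypD over Flag, subtracting the median of genes of like length left log2 ratios of -0.24 for Pou5f1, -0.33 for Sox2, -0.35 for Klf4 and -0.29 for Myc. From Flag to CypD, the summed TPM of markers went from 6254 to 6464 for fibroblasts, from 133 to 117 for epithelial cells and from 93.2 to 84.2 for neural cells. Without S100a4, which shares 47.5% of its windows of 49 bases with another gene and went from 1282 to 1547 TPM, the other 11 fibroblast markers went from 4973 to 4918 TPM. The part of these markers in the factor levels was not tested.

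The proportions also differed at day 4. From counts, the Klf4 to Pou5f1 ratio in the CypD library was 0.890 times that with Flag (0.843 to 0.940), and the Sox2 to Pou5f1 ratio 0.905 times (0.849 to 0.964). The intervals of the Klf4 to Sox2, Klf4 to Myc and Sox2 to Myc changes held 1.

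At day 8, mastoparan was accompanied by small differences. With it, the fold below control was 1.16 for Klf4 (1.11 to 1.20), 1.05 for Myc (1.01 to 1.10) and 1.04 for Pou5f1 (1.01 to 1.07), while the interval of Sox2 held 1 (1.04 times lower, 0.986 to 1.10). None of the 4 factors was past 1.5-fold, against 5.87% of 13651 tested genes lower and 5.01% higher. Klf4 was gene 4 from the lowest among 238 genes of at least 500 CPM, of which 3 (1.26%) were past 1.5-fold lower, namely Lars2, Malat1 and Gm42418 (named after their values were seen). By the same ranking Myc was gene 11, Pou5f1 gene 16 and Sox2 gene 18. The Klf4 to Pou5f1 count ratio was 0.900 times the control's (0.857 to 0.945), and the intervals for Sox2 to Pou5f1 and Myc to Pou5f1 held 1. The Klf4 to Sox2 ratio was 0.898 times the control's (0.841 to 0.959) and the Klf4 to Myc ratio 0.907 times (0.856 to 0.961).

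Paraquat was accompanied by lower counts of all 4 factors. With it, the fold below the day-8 control was 2.21 for Klf4 (2.10 to 2.33), 1.80 for Sox2 (1.68 to 1.92), 1.75 for Myc (1.65 to 1.84) and 1.64 for Pou5f1 (1.59 to 1.71). All 4 were at least 1.5-fold lower, as were 10.5% of 13651 tested genes, and 1 of the 4, Klf4, was at least 2-fold lower, against 3.51% of tested genes. The median log2 ratio of the 4 factors was -0.82, and that of all tested genes was -0.03.

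Few other abundant genes were as low with paraquat. Among the 238 genes whose day-8 mean reached 500 CPM, 6 (2.52%) were at least 1.5-fold lower, and 4 of these 6 were the factors. The other 2 were the predicted genes Gm11808 and Gm26825, with log2 ratios of -3.24 and -0.75 (named after their values were seen). In the opposite direction 29 of the 238 (12.2%) were at least 1.5-fold higher, and the median log2 ratio of the abundant genes was 0.21. With limits of 200 and 1000 CPM, the factors made up 4 of 10 and 3 of 3 genes at least 1.5-fold lower, Sox2 lying under the higher limit.

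**Figure D3:**
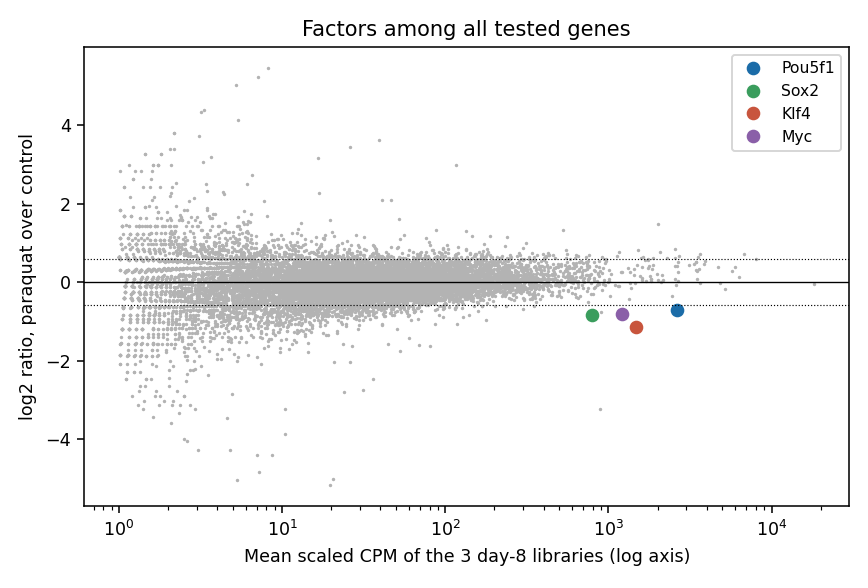
Log2 ratio of paraquat over control (vertical axis) against the mean scaled CPM of the 3 day-8 libraries (log axis) for the 13651 tested genes in grey and the 4 factors in colour, with dotted lines at 1.5-fold. The factors lie below the lower dotted line, in a range of abundance where few grey points do.

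The paraquat library also differed from the control along transcript length. The median log2 ratio of paraquat over control was 0.53 in the shortest of 40 bins of transcript length and -0.23 in the longest. The bins holding the factors had medians of 0.14 for Pou5f1, 0.08 for Myc, -0.06 for Sox2 and -0.08 for Klf4. After subtracting these medians the log2 ratios were -0.85, -0.89, -0.78 and -1.06, so each factor remained more than 1.5-fold lower. On deposited TPM the factors were 2.04, 2.15, 2.19 and 3.30 times lower in the same order, and on that scale the median log2 ratio of all tested genes was -0.28. Relative to that median the log2 ratios on TPM were -0.75 for Pou5f1, -0.82 for Myc, -0.85 for Sox2 and -1.44 for Klf4.

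Marker genes of other cells differed between these libraries as follows. From control to paraquat, summed TPM went from 6037 to 5714 over 12 fibroblast markers, from 332 to 304 over 6 epithelial markers, from 8.24 to 6.02 over 8 pluripotency markers and from 49.4 to 35.0 over 5 neural markers. On TPM the median log2 ratio of all tested genes was itself -0.28. On scaled counts 5 epithelial markers were tested, 2 with log2 ratios above 0 and 3 below, with a median of -0.08. Among them Krt8 had a fold of 1.18 (1.08 to 1.30), but it shares 29.9% of its windows with other genes, so its counts are uncertain. Epcam had a fold of 0.886 (0.704 to 1.11) and Cdh1 a fold of 0.879 (0.607 to 1.26). Without S100a4, which went from 1567 to 2002 TPM, the other 11 fibroblast markers went from 4469.6 to 3711.5 TPM. Col3a1, a collagen gene among them, went from 162 to 85.2 TPM, and its fold on scaled counts was 0.737 (0.666 to 0.814). On scaled counts 4 of the 12 fibroblast markers had log2 ratios above 0 and 8 below, with a median of -0.09. None of the 12 was at least 1.5-fold lower on that scale. Summed TPM went from 18.0 to 13.1 over 4 endothelial markers with Cdh5 at 0 in both, from 21.4 to 19.1 over 4 macrophage markers with Ptprc and Adgre1 at 0 in both, and from 4.00 to 7.15 over 4 muscle markers with Myod1 and Myog at 0 in both. Of the 8 pluripotency markers, Lin28a and Dppa3 were at 0 in both and Esrrb was at 0 with paraquat. The part of these differences in the factor levels was not tested.

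With paraquat the 4 factors were lower by unequal amounts. The Klf4 to Pou5f1 count ratio was 0.744 times the control's (0.699 to 0.792), the Klf4 to Sox2 ratio 0.813 times (0.747 to 0.885) and the Klf4 to Myc ratio 0.790 times (0.733 to 0.851). The Sox2 to Pou5f1 ratio was 0.915 times the control's (0.847 to 0.988). The intervals of the Myc to Pou5f1 change (0.942, 0.883 to 1.01) and the Sox2 to Myc change (0.971, 0.890 to 1.06) held 1. Klf4 was thus the factor whose proportion to each of the others was lower beyond counting error, as it also was with mastoparan.

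Mastoparan and paraquat, 2 agents set against each other here without stated doses, are compared with the same control, so the comparisons share libraries. Between the treated libraries, Pou5f1 was 1.58-fold higher with mastoparan than with paraquat (1.52 to 1.64), Myc 1.66-fold (1.57 to 1.75), Sox2 1.73-fold (1.61 to 1.85) and Klf4 1.91-fold (1.81 to 2.01). All 4 were at least 1.5-fold higher, as were 9.54% of 13651 tested genes and 6 of the 238 abundant genes (2.52%). Of these 6 abundant genes, 4 were the factors themselves and 2 were others.

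**Figure D4:**
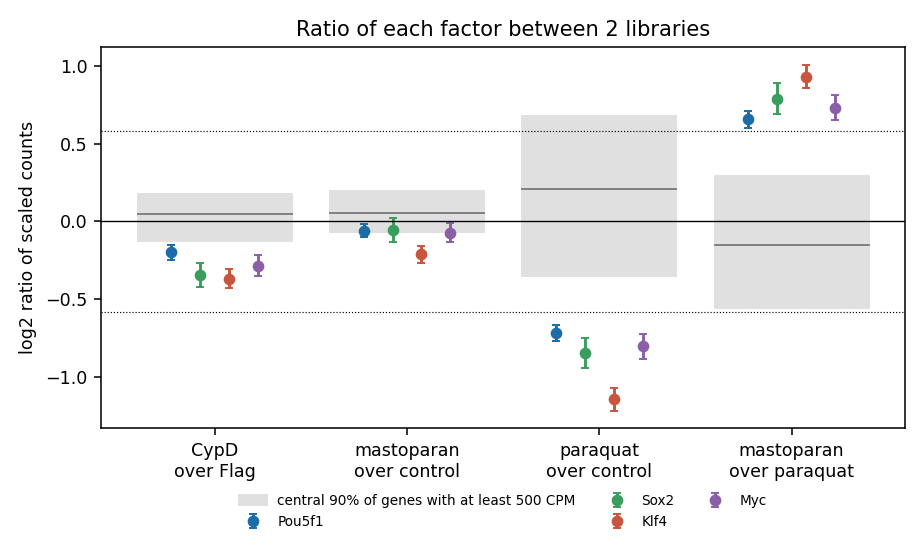
Log2 ratio of scaled counts (vertical axis) of each factor in the 4 comparisons, with exact 95% counting intervals, over grey boxes for the central 90% of genes of at least 500 CPM with their median as a line and dotted lines at 1.5-fold. The factors lie under the box for CypD over Flag and for paraquat over control, and above it for mastoparan over paraquat. For mastoparan over control Klf4 and Myc lie under the box and Pou5f1 and Sox2 within it.

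The day-8 control and the day-4 Flag library differ in day and in label, and their values are given side by side. The control over Flag fold was 1.29 for Pou5f1, 0.893 for Sox2, 1.15 for Klf4 and 1.06 for Myc. None was past 1.5-fold, against 19% of 13584 tested genes higher and 12.8% lower. The Sox2 to Pou5f1 count ratio in the control was 0.695 times that with Flag (0.653 to 0.739).

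The deposited length of a gene is the mean of its transcript lengths, weighted by the estimated share of each transcript, and so follows which transcript models took the reads. Klf4 was the factor whose length differed most, at 2066 bases with Flag, 2286 with CypD, 2289 in the untreated day-8 cells, 2565 with mastoparan and 2786 with paraquat. The longest value was 1.35 times the shortest, and 896 of 5914 genes (15.2%) with several transcripts and at least 20 CPM had a spread at least as large. From control to paraquat the Klf4 length was 1.22 times longer, and 235 of the 5914 genes showed a ratio at or above that. Pou5f1 ranged from 1247 to 1322 bases and Myc from 1386 to 1407, while Sox2, with 1 transcript, had 2457 in every library.

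For Klf4 the files list 3 transcripts, which in GENCODE M21 are Klf4-201 of 3029 bases, Klf4-202 of 522 bases and Klf4-203 of 859 bases. With those lengths, the share of the 2 short models lay between 38.4% and 44.4% with Flag, 29.6% and 34.2% with CypD, 29.5% and 34.1% in the untreated day-8 cells, 18.5% and 21.4% with mastoparan, and 9.71% and 11.2% with paraquat. The long model then stood between 804 and 860 TPM in the control and between 329 and 334 TPM with paraquat. The short models together stood between 360 and 416 TPM in the control and between 36.0 and 41.5 TPM with paraquat. Both classes were lower with paraquat, and the bounds of the 2 libraries did not overlap for either. Such bounds, here and for Pou5f1 below, vary only the shorter model taken, at M21 lengths. They hold no error of counting or of assigning reads to models. With mastoparan the long model stood between 711 and 737 TPM and the short models between 167 and 193 TPM.

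**Figure D5:**
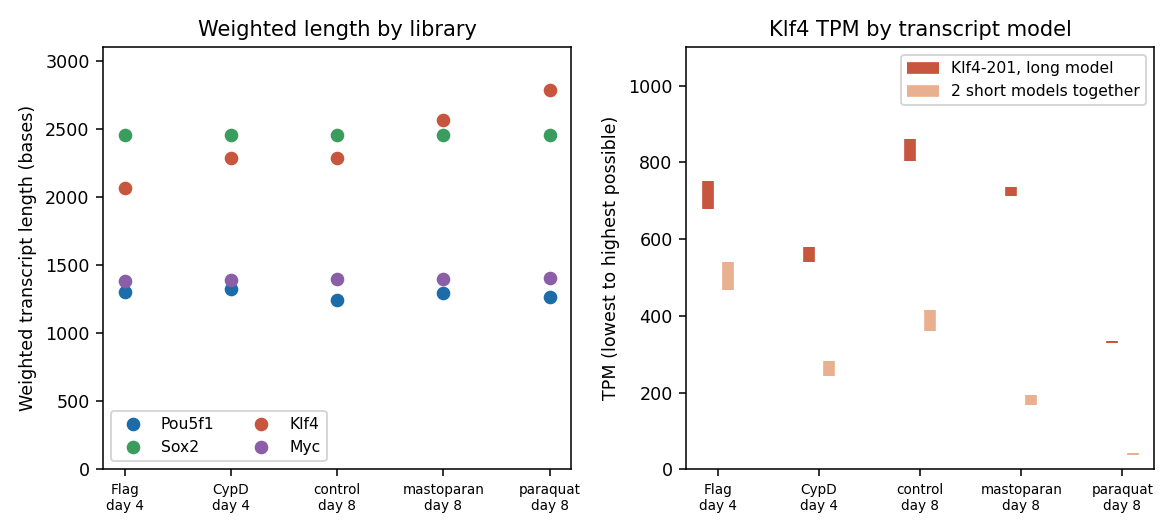
Left, weighted transcript length (bases, axis from 0) of each factor by library. Right, lowest to highest possible TPM of the long Klf4 model and of the 2 short models together, from the deposited length and the M21 model lengths, without counting error. Klf4 is the factor whose length spreads, from 2066 to 2786 bases, and its short models are lowest in the paraquat library.

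The Myc length was close to that of 2 of its 8 models, Myc-207 of 1365 bases and Myc-208 of 1362 bases, which have 0 noncoding bases in M21. A mean length does not show which models took the reads. Mixes of longer models with Myc-203 of 381 bases could give the same mean. The deposited Myc length exceeded 1365 bases by 21.4 with Flag, 23.7 with CypD, 30.2 in the untreated day-8 cells, 29.6 with mastoparan and 41.9 with paraquat, and it stayed far below the 2338 bases of the reference transcript Myc-205. Myc-207 and Myc-208 begin at a CTG codon. The 30 bases (GENCODE M21 transcripts) around their ATG are shown, with the ATG in capitals, because they hold the internal ATG of both coding-only models. The ATG starts at position 46 of Myc-207 and position 43 of Myc-208, counted from the 5′ end of the model.
Myc-207: gaaaccccgcagacagccacgacgATGccc
Myc-208: ttggaaaccccgacagccacgacgATGccc

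For Pou5f1, which has 6 listed transcripts, the full-length model Pou5f1-201 of 1362 bases held between 83.4% and 93.4% of the gene's transcripts in the Flag library and between 68.8% and 87.6% in the untreated day-8 cells, with overlapping bounds in all 5 libraries except between CypD (89.0% to 95.6%) and control. Of the 49-base windows of Pou5f1 transcripts, 10.2% also occur in Gm19553 or Gm5712. Gm19553 overlaps Pou5f1 exons on the other strand and was listed at 0 counts in all 5 libraries. Whether counting used strand is not stated, so reads of the 2 genes cannot be told apart. For Klf4 0.295% of windows are shared, and for Sox2 and Myc 0. The deposited Sox2 length is 400 bases above its M21 transcript, and among single-transcript genes 71.1% had equal lengths, so per-length values depend on the annotation used.

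Each factor dominated its own gene family. Pou5f1 made up between 98.9% and 99.3% of the TPM of 15 POU genes, with Pou6f1 the next at 14.1 to 24.7 TPM. Sox2 made up between 75.4% and 84.1% of the TPM of 20 SOX genes, with Sox13 next. Klf4 made up between 73.6% and 89.2% of 17 KLF genes, with Klf3 next. Myc made up between 73.1% and 83.4% of 13 genes of the MYC-MAX network, with its partner Max or the antagonist Mxd4 next. The lowest share of Sox2, Klf4 and Myc was in the paraquat library, where the other members of their families summed to 84.1, 133 and 264 TPM.

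Other members of the factors' families were counted without the factors. Members past 1.5-fold are named here and below after their values were seen, and most had few counts. With paraquat against control, 12 SOX genes were tested, of which 3 (Sox1, Sox15 and Sox18) reached 1.5-fold upwards and 3 (Sox4, Sox6 and Sox8) downwards. Of 11 KLF genes 0 reached it upwards and 1 downwards. Of all tested genes 8.15% did so upwards and 10.5% downwards. In the MYC-MAX network 1 of 10 was higher and 0 lower, and of 5 POU genes 2 (Pou3f1 and Pou4f1) were higher and 1 (Pou3f2) lower. The KLF gene that was lower was Klf9, with 13 counts against 50 and a fold of 0.347 (0.173 to 0.649), and the MYC-MAX gene that was higher was Mxd3, with 51 counts against 43 and a fold of 1.58 (1.04 to 2.44). The median log2 ratios were -0.24 for SOX, -0.22 for KLF, -0.20 for MYC-MAX and -0.05 for POU, against -0.82 for the factors. With CypD against Flag, 0 of 9 SOX genes were higher and 1 (Sox5) lower, 1 of 11 KLF genes (Klf8) was higher and 2 (Klf2 and Klf7) lower, and 2 of 6 POU genes (Pou3f1 and Pou3f4) were higher. The share of all tested genes was 5.22% higher and 5.75% lower in that comparison. With mastoparan 3 of 12 SOX genes (Sox1, Sox15 and Sox18), 1 of 11 KLF genes (Klf15) and 1 of 5 POU genes (Pou3f1) were higher, and 1 KLF gene (Klf9) was lower, against 5.01% higher and 5.87% lower over all tested genes. In the MYC-MAX network 0 of 10 were past 1.5-fold with CypD or with mastoparan. The mastoparan medians were 0.01 for SOX, 0.06 for KLF, -0.02 for MYC-MAX and -0.19 for POU, against -0.07 for the factors. On deposited TPM 3 of 64 pairs of a gene past 1.5-fold and a comparison, over all lists, turned direction, namely Pou4f1 and Lefty1 with paraquat and Ocln with CypD. Sox4 shares 54.1% and Klf7 38.3% of their transcripts' 49-base windows with another gene, so their counts are uncertain.

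Genes known as targets of the factors were counted next. Of 30 Myc targets, which serve ribosome production and growth, 1 was at least 1.5-fold higher with paraquat and 2 were lower (Ccnd2 and the telomerase gene Tert), with a median log2 ratio of 0.08, where 8.15% of all tested genes were higher and 10.5% lower. Ccnd2, which encodes the cell-cycle regulator cyclin D2, had 493 counts against 1066 in the control (fold 0.618, 0.554 to 0.688), and Nme1, which encodes a nucleoside diphosphate kinase, had 599 against 515 (fold 1.55, 1.38 to 1.75). None of the 30 was past 1.5-fold with CypD (5.22% of all tested genes higher, 5.75% lower) or with mastoparan (5.01% and 5.87%). Of 12 genes repressed by Myc, 0 were past 1.5-fold in any of the 3 comparisons with a control, and with paraquat 5 had log2 ratios above 0 and 7 below. The members farthest from 0 were Hbp1, which encodes a transcriptional repressor, with a fold of 0.694 (0.575 to 0.835), Thbs1, which encodes thrombospondin, with 0.701 (0.638 to 0.770), and the growth-arrest gene Gadd45g with 1.39 (1.19 to 1.62). Hbp1 shares 22.4% of its windows with other genes, so its counts are uncertain.

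Of 22 target genes of Oct4 and Sox2 in pluripotent cells, 15 were tested at day 8, and 3 (Utf1, Lefty1 and Gdf3) reached 1.5-fold upwards and 4 (Nanog, Spp1, Trp53bp1 and Rif1) downwards with paraquat, with a median of -0.04, beside 8.15% and 10.5% of all tested genes. Spp1, which encodes osteopontin, had 86 counts against 191 (fold 0.601, 0.461 to 0.780), and Rif1, which encodes a telomere-associated factor, had 27 against 60 (fold 0.601, 0.367 to 0.962). Nanog had 10 counts against 21, an interval that held 1. With CypD against Flag 1 of 11 was higher (5.22% of all tested genes), Fgf4 (43 counts against 17, fold 1.86, 1.04 to 3.47), which encodes a growth factor. With mastoparan 2 of 15 (Zfp42 and Gdf3) were higher and 0 lower, beside 5.01% and 5.87% of all tested genes.

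Of 17 target genes of Klf4, 15 were tested at day 8, and 1 was higher and 1 lower with paraquat, with a median of -0.08, and the shares of all tested genes were 8.15% and 10.5%. The lower gene was Sprr2a1, with 0 counts against 49, which shares 96.3% of its windows with other genes and is uncertain. The higher gene, Lefty1, had 22 counts against 19, an interval that held 1, and on deposited TPM it was lower, at 7.29 against 8.38. With CypD 0 of 13 were higher and 1 lower (Sprr1a, 2 counts against 6), and with mastoparan 0 of 15 were higher and 1 lower (Sprr2a1 again, with 0 counts), while 5.75% and 5.87% of all tested genes were lower in these comparisons and 5.22% and 5.01% higher. The next members by distance from 0 with paraquat were the apoptosis gene Bax, with a fold of 1.40 (1.28 to 1.53), and the cell-cycle inhibitor gene Cdkn1c, with 0.771 (0.572 to 1.03). Cdkn1c shares 25.1% of its windows with another gene, so its counts are uncertain.

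Against 8.15% of all tested genes higher and 10.5% lower with paraquat, of 28 regulators of the stability and activity of the factor proteins, 0 were higher and 1 lower, the ubiquitin ligase gene Itch, with 39 counts against 88 (fold 0.592, 0.395 to 0.873). None of the 28 was past 1.5-fold with CypD (5.22% of all tested genes higher, 5.75% lower) or mastoparan (5.01% and 5.87%). Of 28 repressors and barriers of reprogramming, 1 was higher (Nr2f2) and 2 lower with paraquat, namely the histone methyltransferase gene Ehmt1, with 75 counts against 172 (fold 0.582, 0.438 to 0.768), and the TGF-beta receptor gene Tgfbr2, with a fold of 0.652 (0.508 to 0.832). The counts were 0 higher and 1 lower (Suv39h2) with CypD, and 0 higher and 1 lower (Snai1) with mastoparan.

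For the 3 lists that follow, the shares of all tested genes higher and lower were 8.15% and 10.5% with paraquat, 5.01% and 5.87% with mastoparan, and 5.22% and 5.75% with CypD. Of 27 other genes used in reprogramming mixes, 19 were tested at day 8, and 3 (Sox1, Sox15 and Utf1) were higher and 5 lower with paraquat. The 5 were Nanog, Lin28b, Glis1 and the demethylase genes Kdm4c (40 counts against 94, fold 0.568, 0.382 to 0.831) and Kdm2b (58 against 124, fold 0.625, 0.449 to 0.860). With mastoparan 3 (Sox1, Sox15 and Tfap2c) were higher and 2 (Lin28b and Glis1) lower, and with CypD 0 of 15 were higher and 2 (Klf2 and Tfap2c) lower. Of 25 fibroblast genes, 1 was higher (S100a4) and 3 lower with paraquat, namely Col5a2, Lum and the matrix proteoglycan gene Dcn (30 counts against 74, fold 0.542, 0.342 to 0.838). With CypD 0 of 25 were past 1.5-fold, and with mastoparan 1 (Twist2) was higher. S100a4 and Twist2 share 47.5% and 45.7% of their windows with other genes. Of 16 tested genes of the mesenchymal-to-epithelial change, 3 were higher and 1 (Ovol1) lower with paraquat, the 3 being Rab25, Crb3 and the tight-junction gene Cldn7 (39 counts against 22, fold 2.37, 1.37 to 4.19). Ocln, another tight-junction gene, was the 1 of 16 past 1.5-fold with mastoparan, at 28 counts against 14 (fold 2.16, 1.10 to 4.45). It was also the 1 of 11 with CypD, at 6 counts against 1, but its deposited TPM was lower there, at 0.71 against 1.73 with Flag.

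The genes with a 5-library pattern most like each factor were found by the Euclidean distance between centred log2 CPM values, over 7932 genes with at least 20 CPM. For Pou5f1 the nearest was Rnf213 (distance 0.0999), at 23.3, 19.7, 28.5, 28.1 and 16.5 CPM in the Flag, CypD, control, mastoparan and paraquat libraries. For Sox2 it was Cdyl (0.129), for Klf4 Timp3 (0.237), and for Myc Zfp217 (0.078), at 67.5, 57.3, 73.0, 65.6 and 40.7 CPM. Timp3 shares 21.4% of its windows with other genes, and Gpc2, the next gene after Rnf213 for Pou5f1, shares 49.8%, so their counts are uncertain. Among the factors, Myc ranked 3 of 7932 in nearness to Klf4, 29 to Sox2 and 99 to Pou5f1, whereas Sox2 ranked 1245 in nearness to Pou5f1. The next genes in order were Gpc2, Clcn3, Apaf1 and Rap1gap2 for Pou5f1, Tmcc2, Usp40, Cdc42bpg and Sipa1l3 for Sox2, Abca3, Zfp217, Tmcc2 and Ogdhl for Klf4, and Ocrl, Abca3, Baz2a and Gphn for Myc. Counts per library were 38 to 88 for Rnf213, 39 to 89 for Cdyl and 43 to 100 for Ocrl, against 94 to 225 for Zfp217 and 253 to 656 for Timp3. The distances make no allowance for counting error, so the order of nearness is uncertain. With 5 libraries these are descriptions of likeness, and no p-value was computed.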

How the data were processed

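Per the labels' protocols, total RNA taken with Trizol went into TruSeq libraries. Bowtie2 2.2.5 and mm10 are named in the submitters' processing notes, while the counter and the gene models behind the tables are not stated there. Per the file headers, the authors deposited for each gene a weighted length, an effective length, an expected count, TPM and FPKM. FPKM was not used. Gene IDs were matched to symbols for 28756 of 29267 genes.

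Expected counts were rounded and scaled by TMM factors (edgeR 4.0.16, R 4.3.3) of 0.951 for paraquat and 1.01 to 1.02 for the others. Log2 ratios used scaled CPM with a pseudocount of 0.5 CPM, and folds used scaled counts with none. Fold and ratio intervals are exact Clopper-Pearson intervals and level intervals exact Poisson ones. PCR reads are not independent molecules, so they cover counting error only, and a count of 0 allows up to 3 counts. Pooling of samples is not stated, and 1 library per group allows no test. A factor to factor change is the conditional odds ratio of counts. Python 3.11.15, numpy 2.4.6, scipy 1.17.1, pandas 2.3.3 and matplotlib 3.10.9 were used. Code was tested on simulated data.

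Named genes are the 4 factors, up to 4 members of each list with the largest log2 ratio and at least 5 CPM, the 3 most abundant members of each family, and the 5 genes nearest to each factor, leaving out predicted genes. List members past 1.5-fold, also under 5 CPM, and the other abundant genes past it were named after their values were seen. The members and the 13 lists were chosen with earlier results of these data known. The limits of 200, 500 and 1000 CPM, the marker sum without S100a4, the TPM direction of list members, the length bounds, the day-8 control beside Flag and the per-length change of a ratio were added after seeing the data. RefSeq proteins were not used here, so coding length came from GENCODE M21 exons.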

Additional observations from a re-analysis of the deposited data

How the results depend on the processing

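No paired analysis was possible because each group has 1 library, and no library could be left out. For each comparison the 4 factors were recomputed under 8 settings (library totals, DESeq2 1.42.0 size factors, upper-quartile factors, deposited TPM, TMM without the 20 most abundant genes, the mitochondrially encoded genes and the 4 factors, 24 genes in all, pseudocounts of 0.1 and 2 CPM, and length-bin medians subtracted), and 32 of 32 values in each comparison kept their sign and their side of 1.5-fold. The median log2 ratio of the 4 factors moved past its counting spread from -0.07 to -0.15 on deposited TPM for mastoparan over control. For paraquat over control it moved from -0.82 to -0.93 with library totals and -1.12 on TPM, and for mastoparan over paraquat from 0.76 to 0.84 and 1.00. Library totals put the median of all tested genes at -0.13 for paraquat over control, against -0.03 with TMM, and moved the share of calls that were higher from 43.6% to 30.0%. On TPM that share was 16.04%. For mastoparan over paraquat it was 55.9%, 65.8% with library totals and 77.9% on TPM. The Klf4 to Pou5f1 change, per effective length in place of counts, was 0.816 for CypD over Flag, 0.833 for mastoparan over control, 0.620 for paraquat over control and 1.34 for mastoparan over paraquat, the same direction in each. The cause of these moves was not tested. The share of genes past 1.5-fold for paraquat over control (18.7%) was 31.9% with no minimum and 11.7% at 5 CPM. For CypD over Flag (11%) these were 26.4% and 4.02%, and for mastoparan over control (10.9%) 24.1% and 4.22%. On TPM, 8 of the 28 repressors and barriers and 8 of the 25 fibroblast genes were past 1.5-fold with paraquat. So were 5 of the 28 stability regulators and 2 of the 12 Myc-repressed genes. Of all tested genes, 4.22% were higher and 22.1% lower on that scale. Of the 5 genes nearest to each factor, 3 for Pou5f1, 1 for Sox2, 0 for Klf4 and 2 for Myc were shared on TPM. The low counts of list members limit their folds more than the factors' folds.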
